A study of Homo sapiens with 6 samples.

Results

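Steroid hydroxysteroid dehydrogenases and reductases interconvert active and weakly active sex steroids by oxidising or reducing single positions of the steroid ring. They were followed here through 10 genes, HSD17B2, HSD17B4, HSD17B7, HSD17B10, HSD17B11, HSD17B12, AKR1C1, AKR1C2, AKR1C3 and SRD5A1. The members were all probe sets annotated to exactly one of these symbols, 15 of the 19064 probe sets with 1 gene symbol, so that the 10 genes stood among 11963 genes in all. The genes were chosen by their signals on the arrays labelled PSMA and control, with that comparison already known, so their differences between groups are given as descriptions, with no p-value, and are not evidence of a change in the family.

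Gene expression had been measured on 6 Affymetrix arrays with RNA from PC3, an established human prostate cancer cell line derived from a bone metastasis. In 1 group of 3 arrays (replicates 4 to 6) the cells were labelled as overexpressing human PSMA, the prostate-specific membrane antigen encoded by FOLH1, from the plasmid pLNCX-PSMA. In the other group of 3 (replicates 1 to 3) the protocol calls the cells control, transfected with the vector alone, as the source label also says, while the titles and genotype labels call them wild type. Both groups were grown in RPMI, and the protocol describes transfection with FuGENE 6 followed by puromycin selection. Whether each group was a single clone or a pool, and whether the replicates were separate cultures, is not given in the sources used here, so the p-values from limma rest on the spread among these 6 samples alone, and that spread may be technical.

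Signal on the FOLH1 probe sets went against the labels. The probe set annotated to FOLH1 alone (217483_at) averaged 28.1 ± 3.80 on arrays labelled PSMA and 60.5 ± 0.914 on arrays labelled control (SD, n = 3 each), and the brightest one shared with its near-identical paralog FOLH1B averaged 12.5 ± 3.44 and 480.8 ± 65.3 on the same 2 groups. Every direction given below follows the labels as deposited, and an exchange of the labels between the groups would turn every sign. Of the epithelial markers, 5 of 5 lay above the median of the table on both groups, with a summed signal of 13233 to 13716 on arrays labelled PSMA and 16514 to 17012 on arrays labelled control. Of 5 measured luminal prostate markers, 1 (HOXB13) lay above that median in either group. HOXB13 averaged 184 ± 16.7 on arrays labelled PSMA and 142 ± 13.1 on arrays labelled control. The summed luminal signals did not overlap, at 248 to 286 on arrays labelled PSMA and 209 to 234 on arrays labelled control. Most of each sum was HOXB13. The other measured luminal markers were below the median on every array. Their log2 differences went both ways, from -0.09 for ACP3 to 0.19 for KLK2. Leucocyte markers and markers of adrenal and gonadal steroid-making cells had 0 of 3 and 0 of 5 members above it, and their summed signals overlapped between the groups. Among fibroblast and endothelial markers, 2 of 8 lay above the median on arrays labelled PSMA and 1 of 8 on arrays labelled control. Their summed signals also overlapped. LUM, which was below the median on every array and did not pass the filter, averaged 6.26 on arrays labelled PSMA and 35.1 on arrays labelled control. Differences of the other markers of this set went both ways. Signal for the middle stretch of 28S ribosomal RNA averaged 675 ± 4.29 on arrays labelled PSMA and 1498 ± 63.1 on arrays labelled control. On the same groups its 5′ stretch averaged 4047 ± 358 and 5778 ± 681, and the middle of 18S ribosomal RNA 4485 ± 38.8 and 5107 ± 161. Ratios of 3′ to 5′ signal averaged 1.36 and 1.30 for GAPDH, and 4.44 and 4.61 for ACTB. The part of these shifts in the differences below was not tested, and in bulk RNA fewer cells expressing a gene and less of its RNA per cell cannot be told apart.

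In the prostate, enzymes of this family set how much active androgen reaches the androgen receptor, some by forming it and others by inactivating it. SRD5A1 reduces testosterone to the stronger androgen dihydrotestosterone, AKR1C3 reduces androstenedione to testosterone, HSD17B2 oxidises testosterone and oestradiol back to weaker ketones, and AKR1C2 inactivates dihydrotestosterone. Several enzymes named for hydroxysteroids do most of their known work on other lipids: HSD17B4 in peroxisomal beta-oxidation, HSD17B7 in cholesterol synthesis, HSD17B10 in mitochondria and HSD17B12 in fatty acid elongation. AKR1C1, AKR1C2 and AKR1C3 belong to the aldo-keto reductases and lie next to each other on chromosome 10, whereas the HSD17B members named here belong to the short-chain dehydrogenases and are spread over the genome.

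The promoters of the 3 AKR1C genes and of HSD17B7 are shown for 2 reasons. By their brightest probe sets the AKR1C genes lay lower together while HSD17B7 lay higher. In addition, AKR1C1 and AKR1C2 can hardly be told apart by sequence. Sequences are RefSeq's, on GRCh38.p14, 5′ to 3′ on the strand of the gene, from 250 bases before to 50 bases after the start site, with capitals marking matches to the CCAAT box on either strand (CCAAT, or ATTGG on the opposite strand). AKR1C1 is at chr10:4963165-4963464 on the plus strand, AKR1C2 at chr10:5003808-5004107 on the minus strand, AKR1C3 (the first of its listed starts) at chr10:5048531-5048830 on the plus strand and HSD17B7 at chr1:162790452-162790751 on the plus strand.
AKR1C1: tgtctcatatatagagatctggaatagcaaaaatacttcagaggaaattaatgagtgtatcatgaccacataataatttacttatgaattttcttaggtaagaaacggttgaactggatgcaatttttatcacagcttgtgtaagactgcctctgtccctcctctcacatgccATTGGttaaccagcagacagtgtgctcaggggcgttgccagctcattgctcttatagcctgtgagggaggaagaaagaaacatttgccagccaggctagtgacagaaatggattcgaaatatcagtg
AKR1C2: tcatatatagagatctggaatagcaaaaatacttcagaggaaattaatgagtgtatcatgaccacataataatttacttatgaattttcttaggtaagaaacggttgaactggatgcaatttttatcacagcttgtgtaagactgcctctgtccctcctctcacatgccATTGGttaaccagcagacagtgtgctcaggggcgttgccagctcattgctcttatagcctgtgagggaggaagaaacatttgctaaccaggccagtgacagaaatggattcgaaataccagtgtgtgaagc
AKR1C3: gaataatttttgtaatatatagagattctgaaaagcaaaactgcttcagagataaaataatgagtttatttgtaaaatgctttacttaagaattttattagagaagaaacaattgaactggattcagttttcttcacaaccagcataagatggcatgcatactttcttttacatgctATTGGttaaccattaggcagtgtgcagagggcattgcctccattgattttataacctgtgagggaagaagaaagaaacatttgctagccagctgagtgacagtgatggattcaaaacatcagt
HSD17B7: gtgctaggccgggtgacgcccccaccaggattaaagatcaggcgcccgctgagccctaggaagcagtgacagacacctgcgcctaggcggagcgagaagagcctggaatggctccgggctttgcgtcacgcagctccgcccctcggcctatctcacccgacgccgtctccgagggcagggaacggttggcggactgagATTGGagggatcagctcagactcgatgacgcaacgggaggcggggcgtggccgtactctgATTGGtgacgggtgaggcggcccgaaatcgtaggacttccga

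In a global alignment, the AKR1C1 and AKR1C2 promoters were identical at 288 of 292 aligned bases (98.6%), while AKR1C1 and AKR1C3 were identical at 227 of 291 (78.0%). Each of the 3 AKR1C promoters held 1 CCAAT-box match on the opposite strand, starting 77 bases upstream of the start site in AKR1C1, 81 in AKR1C2 and 73 in AKR1C3. The HSD17B7 promoter held a match 52 bases upstream and another 9 bases into the transcript. HSD17B11 held a match 73 bases upstream, and HSD17B10 (the first of its listed starts) held matches 25 and 188 bases upstream. HSD17B4 and SRD5A1 held none. Of 35116 RefSeq promoters of this length, 34.6% held such a match. The AKR1C promoters were poor in G and C, at 41.0%, 41.3% and 33.7% for AKR1C1, AKR1C2 and AKR1C3, with 3, 3 and 0 CG dinucleotides. HSD17B7 had 65% G and C with 29 CG dinucleotides, against medians of 58.7% and 14 over all promoters. SRD5A1, HSD17B10, HSD17B4 and HSD17B11, which read lower on arrays labelled PSMA, had 71%, 63.7%, 55.3% and 55.3% G and C. Their promoters held 33, 26, 19 and 18 CG dinucleotides, so base content did not follow the direction of the difference among the members. The GC box (GGGCGG, both strands), present in 44.95% of all promoters, was found in the promoters of HSD17B4, HSD17B7, HSD17B10 and SRD5A1 and not in the 3 AKR1C windows. TATAAA, on either strand, was found in AKR1C3 among the members and in 11.5% of all promoters. The core of the antioxidant response element (TGACNNNGC) and the sterol regulatory element (TCACNCCAC), searched on both strands and present in 13.3% and 1.13% of all promoters, had no match in the member windows. No matches in the member promoters shared bases with one another. A match is a description and not a binding site, and promoters were matched for 8 of the 10 genes.

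HSD17B2, the oxidase that turns testosterone and oestradiol into weaker ketones, differed far more between the groups than the other 9 genes. Its probe set (204818_at) read 91.5, 73.7 and 76.3 on the arrays labelled PSMA and 10.5, 11.9 and 13.02 on the arrays labelled control. Every array labelled PSMA was well above every array labelled control, whose values lay at or below the 25th percentile of the table (13.02). The group means were 80.5 ± 9.64 and 11.8 ± 1.24 (SD, n = 3 each), at percentiles 56.7 and 22.9 of all probe sets. The log2 difference was 2.77 (SE 0.131), a 6.80-fold higher signal on arrays labelled PSMA. Because the lower group sat near the background level to which GCRMA shrinks dim probe sets, the size depends on the treatment of low values, and with 16 added to each value the log2 difference was 1.79. HSD17B2 entered the test only through the 3 arrays on which it was high, so its passing the filter already required a difference.

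HSD17B7, which reduces the ketone of a late sterol intermediate on the way to cholesterol and can also reduce oestrone, was the only other gene of the 10 with a higher signal on arrays labelled PSMA. Its probe set (220081_x_at) read 436.3, 486.9 and 498.4 on arrays labelled PSMA and 338.5, 313.5 and 343.8 on arrays labelled control. The groups did not overlap, and the difference of 0.51 on the log2 scale (SE 0.072) amounted to a 1.43-fold higher signal. The suffix of this probe set marks probes that can also bind related sequences, and the RefSeq table lists the pseudogenes HSD17B7P1 and HSD17B7P2, so the signal may not come from HSD17B7 alone.

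AKR1C3 and SRD5A1, reductases that make active androgens, read lower on arrays labelled PSMA. AKR1C3, which reduces androstenedione to testosterone and also makes prostaglandins of the F type, read 145.5, 117.8 and 122.5 on arrays labelled PSMA and 199.6, 196.6 and 207.0 on arrays labelled control (209160_at). All 3 control values lay above all 3 PSMA values, and the log2 difference was -0.65 (SE 0.096), the lowest of the 10 genes by their brightest probe sets. SRD5A1, which reduces testosterone to dihydrotestosterone, read 139.9, 126.2 and 132.0 on arrays labelled PSMA and 178.4, 154.2 and 144.9 on arrays labelled control (204675_at). These groups came close without overlapping, at a log2 difference of -0.26 (SE 0.099). The other SRD5A1 probe sets gave -0.31 (211056_s_at) and -0.29 (210959_s_at), so the 3 probe sets of the gene gave like values.

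AKR1C1 and AKR1C2, which inactivate progesterone and dihydrotestosterone, had signals near or below the median of the table, with the brightest AKR1C1 probe set above it on all 6 arrays. The brightest AKR1C1 probe set (204151_x_at) read 64.8, 69.6 and 63.0 on arrays labelled PSMA and 89.0, 83.9 and 85.2 on arrays labelled control, a log2 difference of -0.39 (SE 0.050). A second AKR1C1 probe set (216594_x_at) gave -0.41, with no overlap between the groups, while the dimmest (217626_at) read 16.6 to 20.8 and 16.7 to 22.2 on the same groups and overlapped between them, at -0.06 (SE 0.153). It was the only 1 of the 15 member probe sets whose groups overlapped. AKR1C2 read 45.4, 43.3 and 37.3 on arrays labelled PSMA and 51.0, 52.6 and 55.9 on arrays labelled control (209699_x_at), a log2 difference of -0.34 (SE 0.094), and its other probe set (211653_x_at) gave -0.63 (SE 0.113). The 4 of these 5 probe sets that end in x_at can bind related sequences, and AKR1C1 and AKR1C2 transcripts are near-identical, so the signal cannot be assigned to 1 of these genes.

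HSD17B12, HSD17B10, HSD17B4 and HSD17B11, whose best known substrates include lipids other than sex steroids, read lower on arrays labelled PSMA. HSD17B12, the ketoacyl-CoA reductase of fatty acid elongation, read 1639, 1436 and 1524 on arrays labelled PSMA and 2303, 2341 and 1903 on arrays labelled control (217869_at), a log2 difference of -0.51 (SE 0.111). HSD17B10, a mitochondrial enzyme of isoleucine breakdown and a subunit of mitochondrial ribonuclease P, read 902.3, 946.2 and 950.5 on arrays labelled PSMA and 1244, 1207 and 1267 on arrays labelled control (202282_at), a log2 difference of -0.41 (SE 0.031). In both genes the groups were apart, and the spread was wider in HSD17B12, whose control replicate 3 was well below the other control arrays. HSD17B4, the bifunctional enzyme of peroxisomal beta-oxidation, read 581.7, 574.4 and 559.4 on arrays labelled PSMA and 638.5, 647.8 and 614.6 on arrays labelled control (201413_at), a log2 difference of -0.15 (SE 0.028). HSD17B11, a dehydrogenase of lipid droplets that can oxidise androstanediol, read 87.9, 81.9 and 81.3 on arrays labelled PSMA and 95.8, 95.7 and 89.5 on arrays labelled control (217989_at), a log2 difference of -0.16 (SE 0.049). The signal decreased by 9.75% for HSD17B4 and decreased by 10.7% for HSD17B11, and the nearest values of the groups in HSD17B11 were 87.9 on an array labelled PSMA and 89.5 on an array labelled control.

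**Figure D1:**
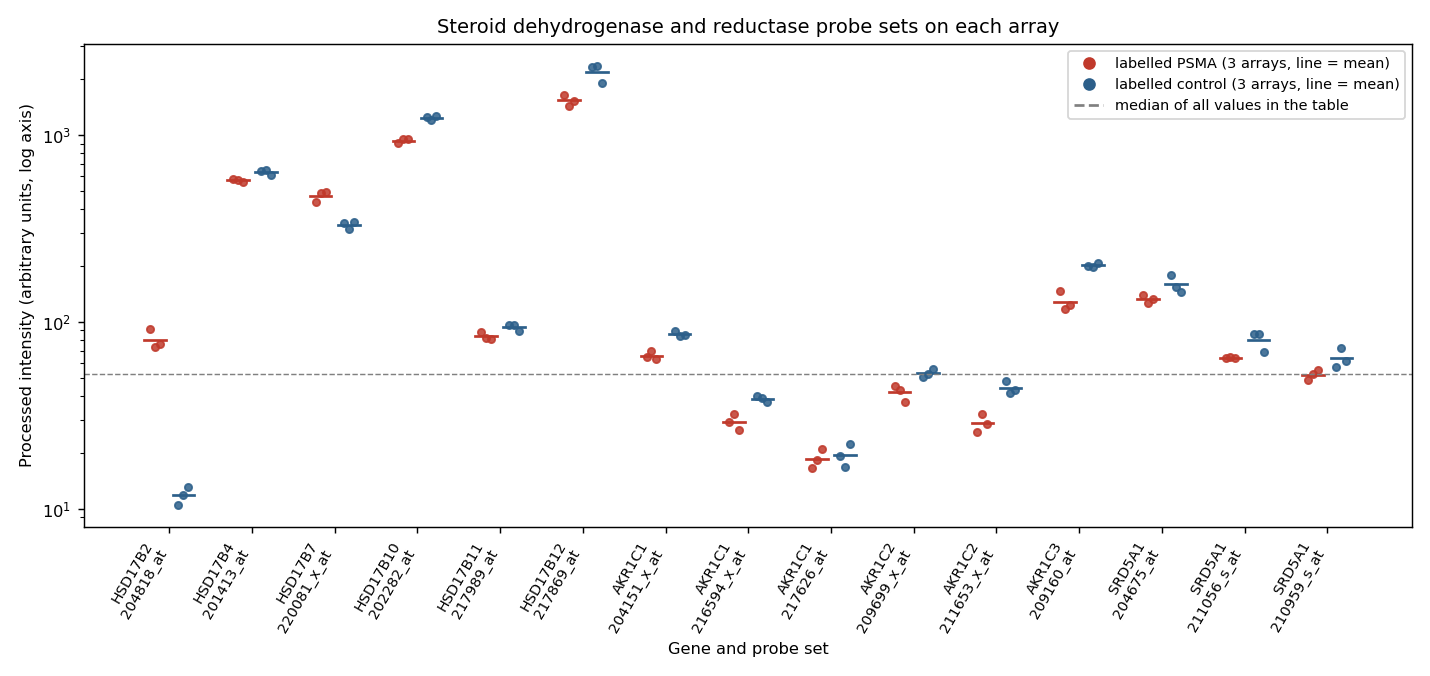
Processed intensity (arbitrary units, log axis) of the 15 member probe sets on each array, arrays labelled PSMA in red at the left of each pair and arrays labelled control in blue at the right, with a short line at the mean of 3 arrays and a dashed line at the median of all values in the table (52.5). HSD17B2 crosses that line between the groups, and the AKR1C1 probe set 217626_at is the only one whose groups overlap.

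Among the 10 genes, by their brightest probe sets, 2 read higher on arrays labelled PSMA and 8 lower. The filter on low values, which asked for a value above the median of the table (52.5) on at least 3 arrays, was passed by 9 genes and by 11 of the 15 probe sets. AKR1C2 was above it on 2 arrays and was not tested. All 9 genes that passed were past the limma threshold (adjusted p under 0.05), 2 higher and 7 lower, where 63.6% of all 7035 tested genes were past it, 30.1% higher and 33.5% lower. The contrast had been used to choose the genes, so nothing is read from that count. The 11 probe sets that passed the filter were also past it, 9 of them lower, where 60.6% of all tested probe sets were, 28.2% higher and 32.4% lower. The 10 genes had a median log2 difference of -0.30, against -0.01 over all tested genes, and a median size of 0.40, against 0.22. By their brightest probe sets all 10 genes had groups without overlap, where 69.5% of tested genes did. Of the 15 probe sets 14 had none, where 46.4% of all single-gene probe sets and 67.3% of those past the filter were so.

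By size, most of the differences were common in these data. A log2 difference at least as far from 0 as that of AKR1C3 was found in 11.4% of tested genes, as that of HSD17B7 in 17.5%, as that of HSD17B12 in 18.01% and as that of HSD17B4 in 62.4%. For HSD17B2 the share was 0.213%, or 15 genes. Its passing the filter already required a difference, so nothing is read from this share. In the fit as reported, leaving out 1 array took the count of genes past the threshold to 7 of 9 at the lowest. HSD17B11 dropped out without control replicate 1 or 2 and without PSMA replicate 5 or 6, HSD17B4 without control replicate 2 or PSMA replicate 6, and SRD5A1 without PSMA replicate 5, each with its direction as before. With no filter on low values, 8 of the 10 genes were past the threshold, with AKR1C2 among them and HSD17B11 and SRD5A1 not. In that setting 4614 of all 11963 genes were past it.

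**Figure D2:**
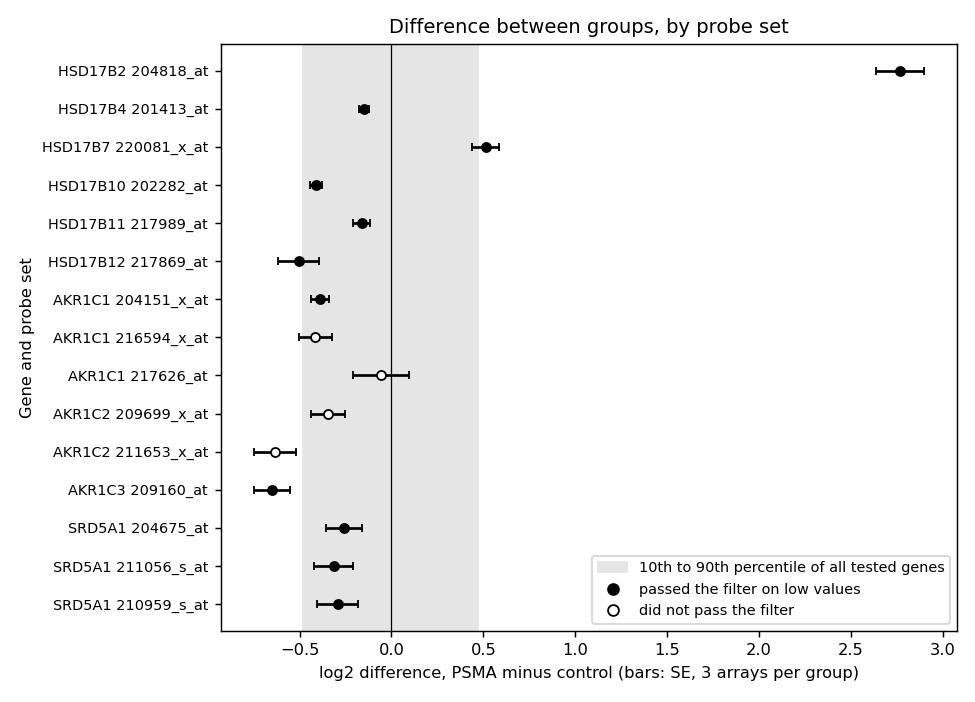
Log2 difference (PSMA minus control) of each of the 15 member probe sets, with bars of 1 SE over 3 arrays per group, filled where the probe set passed the filter on low values. The grey band runs from the 10th to the 90th percentile of all tested genes (-0.48 to 0.47), and HSD17B2 at 2.77 lies far to its right.

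The place of each gene on its chromosome was not used to choose it. The 5 tested genes on each side, in the order of the RefSeq table, are given for comparison with each gene. Around HSD17B2 the 10 neighbours had a median log2 difference of 0.03 and ran from -0.59 to 0.27, and the nearest on each side, GCSH and HSBP1, rose by 0.23 and 0.27 (limma adjusted p = 0.00151 and 0.00172). None of these 10 was as far from 0 as HSD17B2. Around HSD17B12 all 10 neighbours read lower, 9 of them past the limma threshold, with a median of -0.46 beside the gene's own -0.51. The nearest of them, TTC17 and EXT2, fell by 0.47 and 0.26 (limma adjusted p = 0.000374 and 0.000936).

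The 3 AKR1C genes share the same 10 neighbours, of which 9 read lower and 8 were past the limma threshold and lower. Their median was -0.23, and they ran from -0.44 to 0.08, a range that held AKR1C1 (-0.39) and AKR1C2 (-0.34) but not AKR1C3 (-0.65). The nearest on each side were the transcription factor KLF6, which fell by 0.39 (limma adjusted p = 0.000803), and NET1, which did not pass, at 0.08. Of 6804 tested genes with 10 such neighbours, 5.35% had at least 8 of them past the threshold and lower, and 2.97% had at least 9. Around HSD17B11, 6 of 10 neighbours fell and 2 rose, with a median of -0.23. HSD17B7 lay among 5 that rose and 2 that fell (median 0.22), of which UAP1, the nearest on 1 side, rose by 0.71 and RGS4, the nearest on the other, fell by 1.48 (limma adjusted p = 2.68e-06 and 6.62e-07). HSD17B4, HSD17B10 and SRD5A1 had neighbours of both directions, with medians of -0.14, 0.09 and 0.03. The log2 differences of the nearest tested genes were -0.25 for TNFAIP8 and 2.00 for PRR16 beside HSD17B4, and -0.25 for SMC1A and 0.53 for HUWE1 beside HSD17B10. They were -0.45 for AFF1 and -0.36 for NUDT9 beside HSD17B11, and 0.14 for ICE1 and 0.03 for TENT4A beside SRD5A1. The part of chromosomal position in the differences was not tested.

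**Figure D3:**
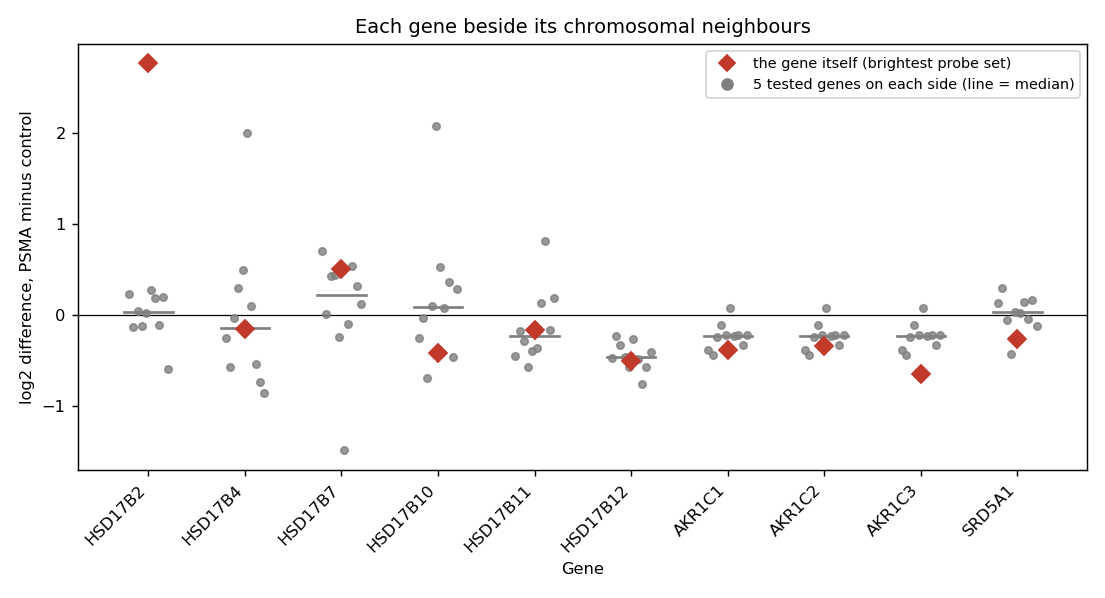
Log2 difference (PSMA minus control) of each gene (red diamond, brightest probe set) beside the 5 tested genes on each side of it (grey points, with a line at their median). HSD17B2 at 2.77 stands above neighbours that run from -0.59 to 0.27, whereas HSD17B12 and its 10 neighbours all lie below 0.

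The tested genes whose log2 values, each centred on its own mean over the 6 arrays, lay nearest to those of HSD17B2 were ESM1, GBX2 and SIGLEC15, at root mean square distances of 0.145, 0.174 and 0.233 on the log2 scale. ESM1, a secreted proteoglycan, averaged 238 ± 6.51 on arrays labelled PSMA and 31.2 ± 0.319 on arrays labelled control (SD, n = 3 each). The homeobox gene GBX2 averaged 105 ± 8.79 and 16.04 ± 1.39 on the same groups, and the sialic acid receptor gene SIGLEC15 averaged 134 ± 11.1 and 19.2 ± 3.85. With 2 groups, likeness over 6 arrays mainly reflects the size of the group difference.

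The other genes of the pathway were taken from 11 lists of 125 genes, of which 65 were tested. Of these, 23 rose and 27 fell on arrays labelled PSMA (limma adjusted p under 0.05), or 76.9%, where 63.6% of all tested genes passed. The median log2 difference was -0.06 against -0.01 over all tested genes, and none of the 65 reached 2-fold. Against a minimum fold of 1.5, 1 of them, ELOVL4, passed.

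Other hydroxysteroid dehydrogenases and their relatives were tested for 9 of 23 listed genes, with 2 higher, 4 lower and 3 not past the threshold. HSD17B8, a mitochondrial dehydrogenase of fatty acid synthesis, averaged 63.7 ± 4.76 on arrays labelled PSMA and 47.0 ± 3.25 on arrays labelled control (SD, n = 3 each), a log2 difference of 0.44. It passed the filter only through the 3 arrays labelled PSMA, where it was high, so it is counted among those past the threshold but no p is given. HSD17B14 rose by 0.24 (limma adjusted p = 0.0232), a call that was lost without control replicate 1 or 3 or PSMA replicate 6 and with no filter. The carbonyl reductase genes CBR3 and CBR1 fell by 0.62 and 0.51 (limma adjusted p = 7.86e-06 and 0.000114). HSD17B1, HSD17B3, HSD17B6, HSD3B1, HSD3B2, HSD11B1 and HSD11B2 did not pass the filter and were not tested. Of the aldo-keto and steroid reductases, 3 of 9 were tested. AKR7A2 and AKR7A3, aldehyde reductases, fell by 0.27 and 0.36 (limma adjusted p = 0.00126 and 0.0238), and the AKR7A3 call was lost without control replicate 1 or 3 or PSMA replicate 5 and with no filter. AKR1B10 did not pass, at 0.03 on the log2 scale, and AKR1C4, AKR1D1 and SRD5A2 were below the filter, with means of 6.11, 5.30 and 9.56 on arrays labelled PSMA and 6.25, 6.42 and 9.69 on arrays labelled control.

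Among genes of steroid synthesis from cholesterol, 5 of 13 were tested, with 1 higher and 3 lower. TSPO, an outer mitochondrial membrane protein, rose by 0.22 (limma adjusted p = 0.00741), while the mitochondrial electron carrier FDX1 fell by 0.26 (limma adjusted p = 0.000459). POR, the electron donor of microsomal cytochromes P450, fell by 0.19 (limma adjusted p = 0.0479), a call lost without control replicate 1 or 3 or PSMA replicate 4 or 6, under quantile normalization and with no filter (limma adjusted p = 0.0935 and 0.106 for these last). STAR, CYP11A1, CYP17A1 and CYP19A1, which carry cholesterol into mitochondria and form androgens and oestrogens from it, were below the filter in both groups. Of the conjugation and transport genes, 5 of 15 were tested, and 2 rose and 2 fell. PAPSS1, which makes the sulphate donor, rose by 0.15 (limma adjusted p = 0.011), and the sulphotransferase gene SULT1A1 rose by 0.12 (limma adjusted p = 0.0455), a call lost without control replicate 1 or 2 or PSMA replicate 4 or 6, with a pseudocount, with no filter and with trend and robust eBayes settings. Over the mean of its probe sets the SULT1A1 difference was 0.05 and did not pass (limma adjusted p = 0.296). SULT1A1 has near-identical paralogs that its probes may also read. The steroid sulphatase gene STS fell by 0.31 (limma adjusted p = 0.00272) and the organic anion carrier gene SLCO1B3 by 0.24 (limma adjusted p = 0.00319).

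Of 9 receptor genes, 4 were tested, with 2 higher and 1 lower. NR3C2, the mineralocorticoid receptor gene, averaged 76.3 ± 4.59 on arrays labelled PSMA and 136 ± 12.0 on arrays labelled control (SD, n = 3 each), and fell by 0.83 on the log2 scale (limma adjusted p = 1.68e-05). The glucocorticoid receptor gene NR3C1 rose by 0.22 (limma adjusted p = 0.00525), and by 0.13 over the mean of its probe sets (limma adjusted p = 0.0255). The membrane oestrogen receptor gene GPER1 rose by 0.20 (limma adjusted p = 0.0326), a call lost without any 1 of control replicates 1 to 3 or PSMA replicates 4 and 5, with no filter and with trend and robust eBayes settings (limma adjusted p = 0.079 and 0.0646 for these last). Without PSMA replicate 5 the GPER1 difference was 0.13. ESR1, ESR2 and PGR were below the filter.

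The reductases use NADPH, and of 9 genes that supply it 7 were tested, with 3 higher and 3 lower. IDH2 and IDH1, isocitrate dehydrogenases, rose by 0.41 and 0.34 (limma adjusted p = 0.000431 and 9.29e-05). NNT, the mitochondrial transhydrogenase, averaged 98.4 ± 11.6 on arrays labelled PSMA and 185 ± 19.8 on arrays labelled control (SD, n = 3 each) and fell by 0.91, and TALDO1, of the pentose phosphate pathway, fell by 0.44 (limma adjusted p = 7.76e-05 and 3.56e-05). Of 8 tested NRF2 targets, the stress-response set to which AKR1C genes are commonly assigned, 3 rose and 4 fell. HMOX1, haem oxygenase, and the quinone reductase gene NQO1 rose by 0.39 and 0.22 (limma adjusted p = 0.00277 and 0.00824), while the cystine exchanger gene SLC7A11 and GCLM, of glutathione synthesis, fell by 0.69 and 0.47 (limma adjusted p = 5.2e-06 and 0.000234). The tested NRF2 targets went both ways. AKR1C3 lay lower, as did the AKR1C1 and AKR1C2 probe sets that can bind related sequences. The dim AKR1C1 probe set 217626_at overlapped between the groups, at -0.06. The part of NRF2 in the AKR1C differences was not tested.

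The lipid routes around the broader members also went both ways. Of 8 tested genes of peroxisomal beta-oxidation, the route of HSD17B4, 4 rose and 2 fell. ECI2, an enoyl-CoA isomerase, averaged 1754 ± 54.3 on arrays labelled PSMA and 1069 ± 64.6 on arrays labelled control (SD, n = 3 each), a rise of 0.72, and the thioesterase gene ACOT8 rose by 0.62 (limma adjusted p = 8.05e-06 and 7.16e-05). ACOX2 and ACAA1 fell by 0.31 and 0.15 (limma adjusted p = 0.00596 and 0.0126), and the ACAA1 call was lost without control replicate 1. Of 7 tested genes of very long chain fatty acid elongation, the route of HSD17B12, 2 rose and 2 fell. The elongase gene ELOVL4 averaged 51.6 ± 3.02 on arrays labelled PSMA and 102 ± 5.81 on arrays labelled control (SD, n = 3 each) and fell by 0.98, and ELOVL6 fell by 0.27, whereas the dehydratase gene HACD3 rose by 0.31 (limma adjusted p = 2.68e-06, 0.00585 and 0.00403). ELOVL2, with a log2 difference of 0.69, passed the filter only through the 3 arrays labelled PSMA, so its count among those past the threshold is no support for a rise.

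Of 3 tested mitochondrial genes listed with HSD17B10, HADH and ACAT1, of fatty acid and isoleucine breakdown, rose by 0.76 and 0.27 (limma adjusted p = 7.82e-06 and 0.00071), against a difference of -0.41 in HSD17B10 itself. Of 9 tested genes of sterol synthesis after squalene, the route of HSD17B7, 2 rose and 6 fell. LBR, a sterol reductase of the nuclear envelope, and SQLE, squalene epoxidase, rose by 0.77 and 0.21 (limma adjusted p = 5.33e-06 and 0.0054). EBP and DHCR7, late sterol enzymes, fell by 0.51 and 0.46 (limma adjusted p = 7.84e-05 and 0.000143), against a difference of 0.51 in HSD17B7.

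**Figure D4:**
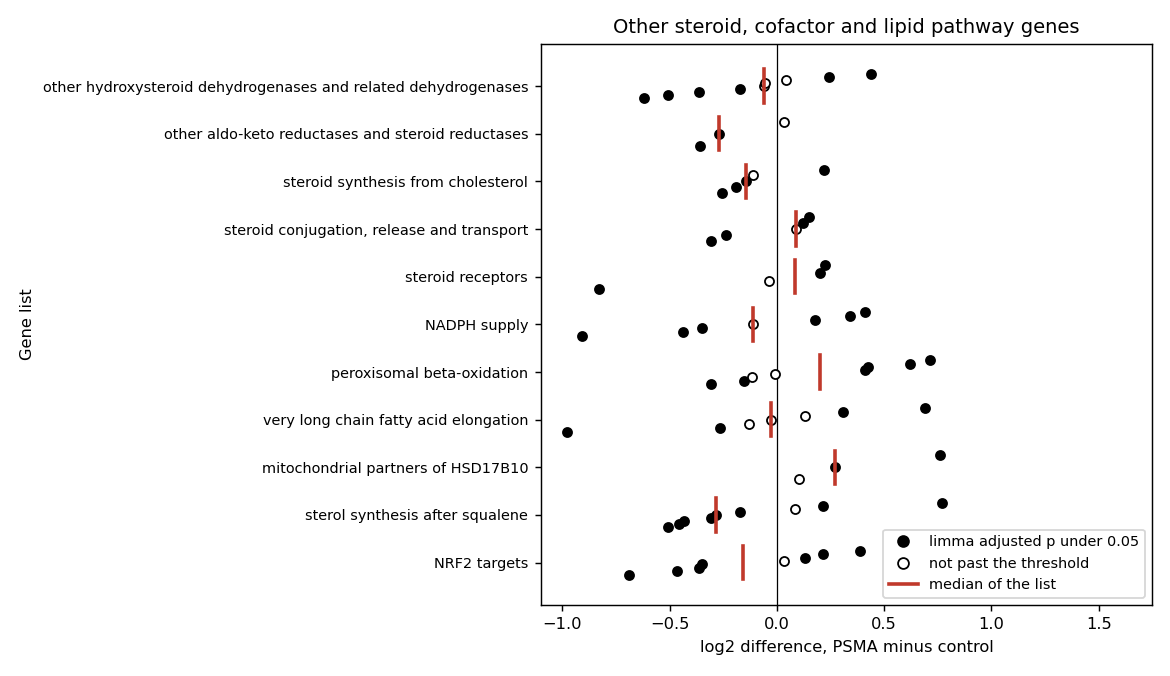
Log2 difference (PSMA minus control) of the tested genes of 11 lists around the steroid dehydrogenases, filled where limma's adjusted p was under 0.05 and with a red line at each list's median. All points lie between -0.98 and 0.77, and most lists hold genes on both sides of 0.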

How the data were processed

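RNA from 6 PC3 samples was hybridised to 1 Affymetrix array each. The authors deposited processed intensities on a linear scale, which the submitters' processing notes credit to GCRMA, and its version is not given in the sources used here. GCRMA corrects background and normalizes between arrays, which compresses dim probe sets. Values ran from 3.76 to 17455, with array medians of 51.7 to 52.9, and were log2 transformed with no pseudocount. Of 22277 probe sets, 19064 had 1 gene symbol in the platform annotation, 1043 had several and 2108 had none, and 62 were controls. Current RefSeq names were found for 19052 of them, with 0 symbols changed. Probe sets above the table median of 52.5 on at least 3 arrays were kept, and each gene was represented by its brightest one. The 7035 genes were fitted with limma 3.58.1 (lmFit and eBayes, R 4.3.3) as PSMA minus control, with Benjamini-Hochberg adjustment, and the procedure was tested on simulated data. The simulated arrays had independent noise and far fewer changed genes than were called here. That test therefore does not show how many of the calls here are right. The SE given is that of the difference between 3 and 3 arrays, whose number limits the precision.

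The 10 genes and all lists were chosen with earlier results of these data known. Genes named from the lists are, among those past the threshold in each list, the 2 highest and the 2 lowest by log2 difference, and neighbours named are the nearest tested gene on each side. One gene of the naming rule is not analysed here. Promoters came from RefSeq on GRCh38.p14 and were aligned with Biopython 1.88. Alternatives were a pseudocount, other filters, quantile normalization, a floor, the mean over probe sets, other eBayes settings, a minimum fold and leaving out each array.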

Additional observations from a re-analysis of the deposited data

How the results depend on the processing

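The 14 alternatives were run for the 10 genes and 38 named list genes, and where these were tested no difference changed sign. Neighbours and the genes most like HSD17B2 were not run. Adding 16 to each value moved HSD17B2 to 1.79 and AKR1C1 to -0.32 on the log2 scale, since dim signals are the most affected, and raising values to the 25th percentile gave 2.62 for HSD17B2. A filter at the 75th percentile, which tests fewer genes, left 2773 of 3904 genes and 3995 of 5780 probe sets past the threshold. With it 4 of the 10 genes were tested and all 4 passed, as did 32 of 41 list genes. A minimum fold of 1.5 left 526 of 7035 genes, 747 of 11303 probe sets, 1 of the 9 tested members (HSD17B2) and 1 of 65 list genes (ELOVL4). HSD17B2 entered the test only through the arrays labelled PSMA, where it was high, so its place here is no support for a rise. Leaving out 1 array at a time gave 3999 to 4442 of 7035 genes and 6078 to 6822 of 11303 probe sets. Of the 9 tested members 7 to 9 passed, and of the 65 tested list genes 42 to 48. Of 516 values for 38 named list genes, 449 kept direction and threshold, and 67 lost the threshold, 37 of them under the minimum fold. Of 154 counts per list, 22 moved by more than 1.5 times. HSD17B11 lost the threshold with trend and robust eBayes settings. No paired analysis was possible because the groups share no replicate number. Dim probe sets, among them AKR1C2 and HSD17B2 on arrays labelled control, limit what can be measured.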

Other observations

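Of the pathway genes that did not pass the filter on low values, SULT2B1, HSD17B6 and H6PD are given here, chosen after their values were seen. Their groups did not overlap, as was so for 46.4% of all single-gene probe sets. Other pathway genes below the filter, among them HSD17B1 and PRORP, also had groups without overlap. SULT2B1, a hydroxysteroid sulphotransferase, averaged 23.9 ± 1.25 on arrays labelled PSMA and 48.5 ± 1.58 on arrays labelled control (SD, n = 3 each), a log2 difference of -1.02. HSD17B6, a dehydrogenase of androgen metabolism, averaged 14.0 ± 1.62 and 22.4 ± 3.08 on the same groups, at -0.68. H6PD, which makes NADPH in the endoplasmic reticulum, averaged 40.9 ± 4.09 and 27.7 ± 4.77, at 0.57. SULT2B1, HSD17B6 and H6PD were not tested.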
